A study of Mus musculus with 4 samples.

Results

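The epidermal connexins Gja1, Gjb2, Gjb5 and Gjb6 were described in mouse skin, as the probes that the platform annotation names for these 4 gene symbols. The array held 6 such probes of 45281, and the 4 genes are 4 of the 19057 genes it named. Gja1 (Cx43), Gjb5 (Cx31.1) and Gjb6 (Cx30) had 1 probe each and Gjb2 (Cx26) had 3. They were picked by symbol, as members of the connexin family. Skin of mice with the C57Black6/J background was profiled in 4 groups. They were WT, wild-type skin without a wound; BLT2KO, unwounded skin of mice deficient in the BLT2 receptor; and WT_punched and BLT2KO_punched, skin of each genotype 2 days after punching. Biopsies measured 5 mm across, and each group was 1 array of RNA pooled from 3 mice. The age and sex of the mice and how the BLT2 gene was disrupted are not given in the sources used here.

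Connexins are membrane proteins that assemble in sixes into hemichannels. Hemichannels of neighbouring cells dock into gap junctions, which pass ions and small metabolites. In mouse epidermis, Cx43 is known from the basal and spinous layers and from dermal cells, Cx31.1 from the differentiating layers, and Cx26 and Cx30 mainly from hair follicles and from hyperproliferative epidermis. At skin wounds, Cx43 is known to be withdrawn from the leading keratinocytes in the first days, while Cx26 and Cx30 appear near the margin. BLT2, the product of Ltb4r2, is a receptor of keratinocytes for the lipid mediators 12-HHT and leukotriene B4. The series asked what its lack does to gene expression in skin with and without a wound.

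Since Gja1 differed between the genotypes in the opposite direction to Gjb2 and Gjb6 in unwounded skin, the sequences just before the starts of these 3 genes are shown. They are RefSeq sequences of build GRCm38.p6, each 250 bases that end at the base before the annotated start, written 5′ to 3′ on the gene's strand. The Gja1 window lies at chr10:56377050-56377299 on the plus strand, that of Gjb2 at chr14:57104703-57104952 on the minus strand and that of Gjb6 at chr14:57133612-57133861 on the minus strand. Capitals mark matches to an AP-1 site, TGANTCA, or to an SP1 box, spelled GGGCGG.
Gja1: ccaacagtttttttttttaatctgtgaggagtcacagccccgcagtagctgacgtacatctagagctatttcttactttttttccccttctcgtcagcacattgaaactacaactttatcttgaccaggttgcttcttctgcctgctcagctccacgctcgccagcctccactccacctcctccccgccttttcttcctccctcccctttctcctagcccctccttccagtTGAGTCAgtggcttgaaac
Gjb2: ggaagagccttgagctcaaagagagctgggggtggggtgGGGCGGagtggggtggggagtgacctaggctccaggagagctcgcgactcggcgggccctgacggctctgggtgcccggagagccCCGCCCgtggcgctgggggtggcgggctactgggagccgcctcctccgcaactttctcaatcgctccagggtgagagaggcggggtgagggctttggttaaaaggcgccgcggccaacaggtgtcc
Gjb6: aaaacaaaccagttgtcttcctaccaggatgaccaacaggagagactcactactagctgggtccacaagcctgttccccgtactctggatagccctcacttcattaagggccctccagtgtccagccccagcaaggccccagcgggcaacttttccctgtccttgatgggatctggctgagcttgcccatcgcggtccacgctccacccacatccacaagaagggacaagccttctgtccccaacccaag
The Gja1 window held 1 AP-1 match, which began 19 bases before the start. The Gjb2 window held 2 SP1 boxes, which began 211 and 126 bases before the start, 1 on each strand. No match overlapped another. A TATA box, TATAAA, was searched as well, all motifs on both strands. None of the 3 windows held it, and the Gjb6 window held no match at all. Of 32851 windows of the same length before RefSeq starts, 6.75% held the AP-1 site, 32.7% the SP1 box and 12.4% the TATA box. The share of G and C was 69.2% for Gjb2 and 56.8% for Gjb6, and lower for Gja1. A match describes letters only and says nothing of a factor's binding.

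Levels below are background-corrected, quantile-normalised intensities on the log2 scale, where a difference of 1 is 2-fold. A probe was detected on an array at a detection p-value under 0.01, which held for 16383 to 17201 of the probes on an array. All groups had 1 array, so no difference was tested and every ratio describes the arrays compared. As the only available spread, the disagreement between different probes of the same gene gave an SD (probe-pair SD) of 0.28 for WT_punched against WT, 0.27 for BLT2KO_punched against BLT2KO, 0.22 for BLT2KO against WT and 0.19 for BLT2KO_punched against WT_punched, from 2985 to 3141 genes. It covers neither mice nor labelling. In RNA from whole skin, fewer cells of a type and less RNA per cell cannot be told apart.

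Marker genes of other skin structures differed between the arrays. Genes of the hair shaft and inner root sheath had higher levels on the BLT2KO than on the WT arrays: 12 of 12 measured markers were at least 2-fold higher in each wound state, with median log2 ratios of 2.73 without a wound and 5.14 after punching. Slow and developmental muscle genes had a median log2 ratio of 3.10 between WT_punched and WT (7 measured genes) and 0.46 between BLT2KO_punched and BLT2KO (5 measured genes). The first set ran from 0.59 for Tnni1 to 4.97 for Myl2, both undetected on the WT array. The second ran from -0.95 for Myh8 to 1.73 for Actc1. Ltb4r2 itself was not analysed here, as the annotation names no probe of it. Ltb4r1, its neighbour and the gene of the BLT1 receptor, was 14.2-fold lower in BLT2KO than in WT and 6.02-fold lower in BLT2KO_punched than in WT_punched. All 9 basal keratinocyte markers, such as Krt5 and Krt14, were detected on every array.

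Of the 4 connexins, Gja1, Gjb2 and Gjb6 were detected on all 4 arrays and Gjb5 on none. The Gjb5 probe had log2 levels of 4.49 in WT, 4.59 in BLT2KO, 4.98 in WT_punched and 4.60 in BLT2KO_punched, with detection p-values from 0.0299 to 0.322. Gjb5 encodes Cx31.1, which is known to form few functional channels by itself. It stayed below the detection threshold on every array, the nearest to it being WT_punched, so no ratio is given. As this was its only probe, a low level of Gjb5 RNA and a probe that reads it poorly cannot be told apart.

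**Figure D1:**
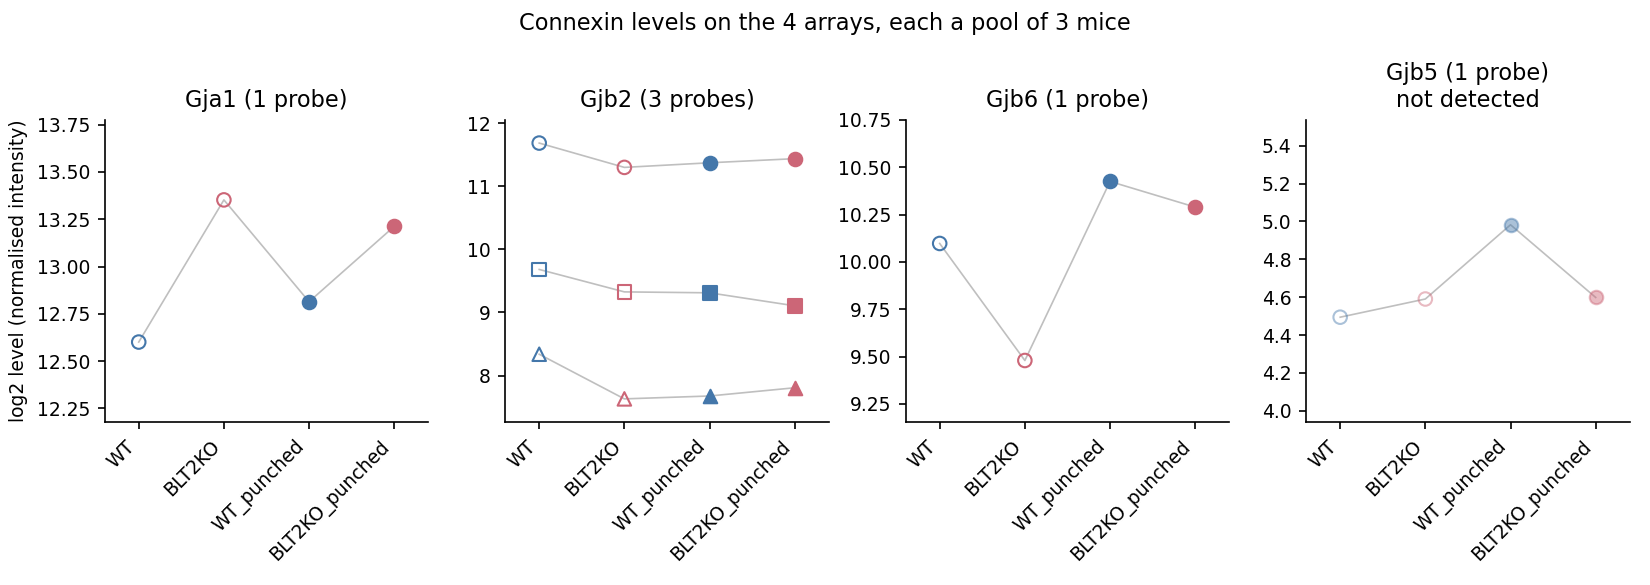
Log2 level (y axis, a scale of its own for each gene) of every probe of the 4 connexins on each array (x axis). Open symbols are unwounded and filled ones punched skin, blue WT and red BLT2KO; symbol shapes are different probes, lines join a probe's values, and pale symbols were not detected. Gja1 was highest on the BLT2KO arrays, and Gjb6 was lowest on the unwounded BLT2KO array.

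Gja1 encodes Cx43, the most widely expressed connexin of skin. Its log2 levels were 12.60 in WT, 13.35 in BLT2KO, 12.81 in WT_punched and 13.21 in BLT2KO_punched. Both BLT2KO pools were above both WT pools. The intensities as deposited, before any normalisation, were 5407 in WT, 10786 in BLT2KO, 7787 in WT_punched and 10005 in BLT2KO_punched, in the same order of arrays. In that order, BLT2KO_punched lay 0.40 above WT_punched, more than the probe-pair SD of 0.19. The gaps of 0.14 between BLT2KO and BLT2KO_punched and of 0.21 between WT_punched and WT were within their SDs.

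Gjb6 encodes Cx30. Its log2 levels were 10.10 in WT, 9.48 in BLT2KO, 10.43 in WT_punched and 10.29 in BLT2KO_punched. The unwounded BLT2KO pool stood below the other pools, with a gap of 0.62 to WT against a probe-pair SD of 0.22. The gaps of 0.14 between the punched arrays and of 0.19 between BLT2KO_punched and WT were within their SDs of 0.19 and 0.28. The range over the 4 arrays was 0.95, against 0.75 for Gja1.

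Gjb2 encodes Cx26, a connexin whose mutations cause skin disease and deafness in humans. The brightest of its 3 probes, which stands for the gene, had log2 levels of 11.69 in WT, 11.30 in BLT2KO, 11.37 in WT_punched and 11.44 in BLT2KO_punched. The second had 9.68, 9.33, 9.31 and 9.11 in the same order of groups, and the dimmest had 8.34, 7.63, 7.68 and 7.81. All 3 probes were highest in WT. They did not share a lowest array, which was BLT2KO for the brightest and the dimmest probe and BLT2KO_punched for the other. No gap between neighbouring arrays of the brightest probe exceeded its probe-pair SD, the largest gap being 0.25 between WT and BLT2KO_punched.

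The effect of the genotype before any wound was addressed by BLT2KO against WT. The measured connexins did not share a direction here. Gja1 was 1.68-fold higher in BLT2KO, a log2 ratio of 0.75 that was 3.40 times the probe-pair SD. Gjb6 was 1.54-fold lower (log2 ratio -0.62, 2.80 times the SD) and Gjb2 1.31-fold lower (-0.39, 1.74 times). The other Gjb2 probes were 1.28-fold and 1.63-fold lower, so that the mean log2 ratio over the Gjb2 probes was -0.48 ± 0.20 (SD, n = 3 probes of the same arrays).

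At 1.5-fold, 1 of the 3 measured connexins was higher in unwounded BLT2KO skin, against 3.37% of all 10235 genes, and 1 was lower, against 4.27%. None reached 2-fold, as 1.08% of all genes did upward and 1.17% downward. Over all genes, 1.86% had a log2 ratio as high as that of Gja1 or higher, 3.75% one as low as that of Gjb6 and 10.2% one as low as that of Gjb2. The median log2 ratio of the measured connexins was -0.39, against -0.014 for all genes. The Gjb6 difference was under 1.5-fold in 3 of 7 other processing settings, at log2 ratios of -0.58 without background correction, -0.53 in the authors' processed values and -0.44 with median scaling. Gja1 stayed past 1.5-fold in all 7, between 0.75 and 0.99.

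Marker lists of skin cells differed between the same unwounded arrays. Besides the hair genes, wound-edge keratinocyte genes had a median log2 ratio of -1.03, with 6 of 12 at least 2-fold lower in BLT2KO. They ranged from -1.98 for S100a9 to 0.080 for Sprr1a. Besides keratin and Sprr genes, this list holds S100a8, S100a9, Slpi, Tnc and Hbegf, so its median is not that of keratin and Sprr genes alone. Neutrophil markers had a median of -1.91 and were at least 2-fold lower in 5 of 7, and monocyte and macrophage markers had a median of -0.38. Melanocyte genes had a median of 1.40, with 3 of 4 at least 2-fold higher, and endothelial genes one of -0.44. Basal keratinocyte genes had a median of 0.17 (-0.066 with the mean of all probes of a gene), suprabasal ones 0.23 and fibroblast genes 0.16. All 12 wound-edge genes were detected on every array. Neutrophil markers were detected for 7 of 7 on WT and 6 of 7 on BLT2KO, and monocyte and macrophage markers for 6 of 7 on both. The part of these lists in the connexin ratios was not tested.

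**Figure D2:**
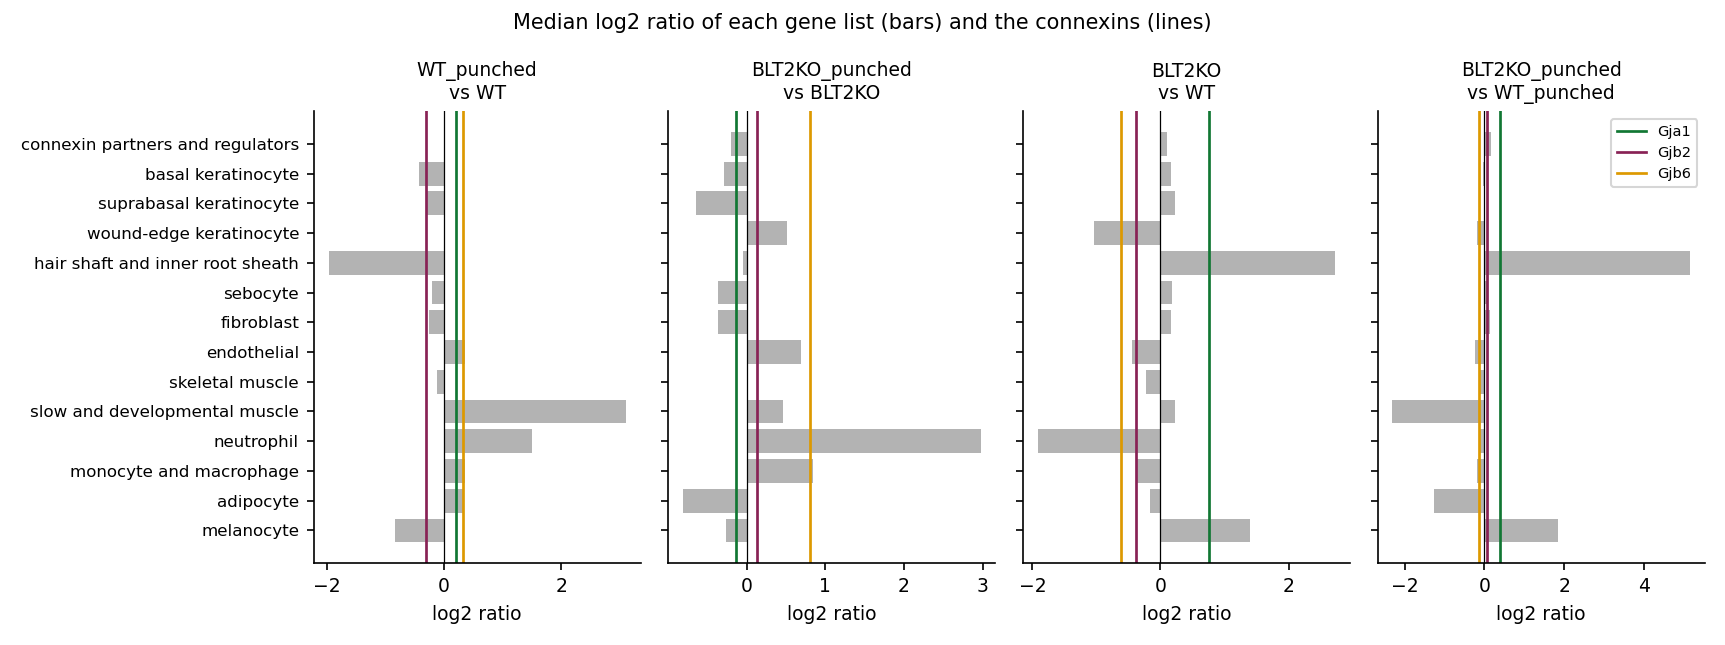
Median log2 ratio of each marker or partner list (grey bars) in the 4 comparisons (panels), with the log2 ratios of Gja1, Gjb2 and Gjb6 as vertical lines. The hair list had the largest median in BLT2KO against WT (2.73) and in BLT2KO_punched against WT_punched (5.14), where Gja1 was at 0.75 and 0.40.

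Gjb2 and Gjb6 are next to each other on chromosome 14, the chromosome of Ltb4r2, with 0 protein-coding genes between them and 34 between Ltb4r2 and Gjb2 in RefSeq's gene order. Gja1 is on chromosome 10 and Gjb5 on chromosome 4. Of the 34 genes, 13 were measured in unwounded skin, with a median BLT2KO against WT log2 ratio of -0.22, and 3 were at least 1.5-fold lower and 1 higher, against 4.27% and 3.37% of all genes. The lowest of them, at -3.82, was Ltb4r1. In punched skin the median of the 14 measured genes was -0.10. The part of position on the chromosome in the Gjb2 and Gjb6 ratios was not tested.

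In punched skin the same genotype comparison gave smaller ratios. Gja1 was 1.32-fold higher in BLT2KO_punched than in WT_punched (log2 ratio 0.40, 2.11 times the probe-pair SD), the same direction as without a wound. Gjb6 was at a log2 ratio of -0.14 and Gjb2 at 0.065, both within the SD of 0.19. The mean over the Gjb2 probes was -0.0034 ± 0.18 (SD, n = 3 probes), with 2 above 0. None of the measured connexins reached 1.5-fold. Of all 10540 genes, 2.51% did so upward and 2.38% downward, and 1.08% and 0.541% at 2-fold. A log2 ratio as high as that of Gja1 was found for 5.46% of all genes. The wound-edge list had a median of -0.19 and the neutrophil list one of -0.14 here (0.052 with the mean of all probes). Larger medians were those of the hair list (5.14), slow and developmental muscle (-2.30, 4 of 7 at least 2-fold lower), melanocyte genes (1.85, 3 of 4 at least 2-fold higher) and adipocyte genes (-1.27, 5 of 5 at least 2-fold lower). Their part in the connexin ratios was not tested.

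**Figure D3:**
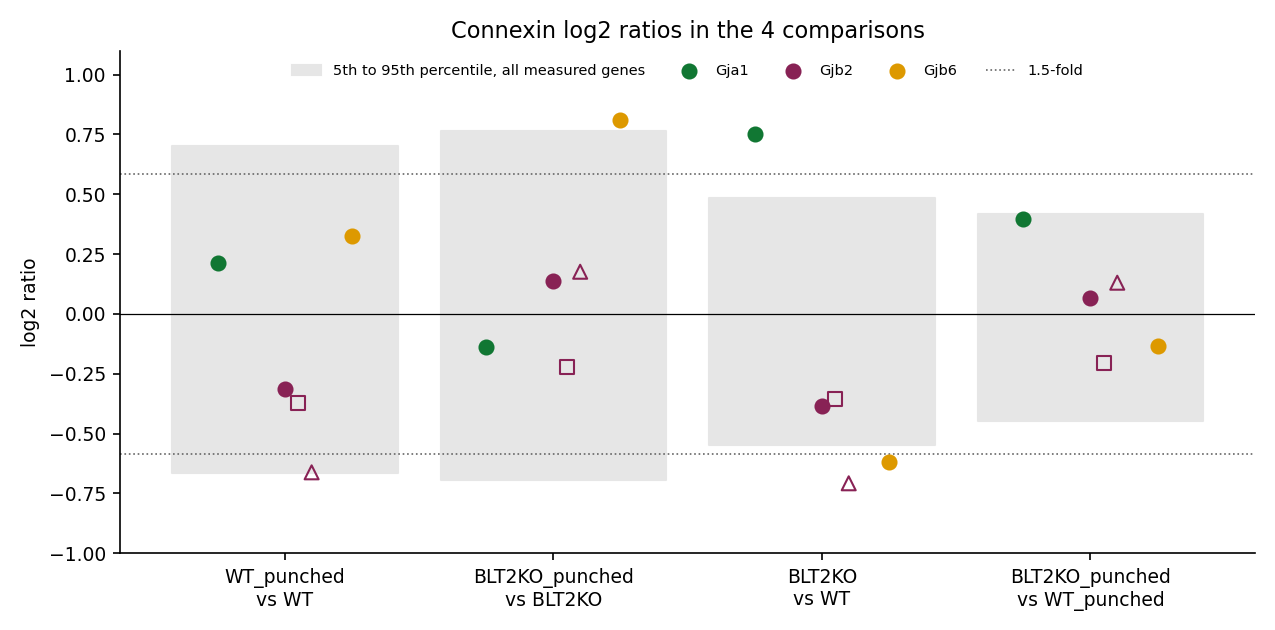
Log2 ratios (y axis) of each Gja1, Gjb2 and Gjb6 probe in the 4 comparisons (x axis); filled symbols stand for the gene, open ones are the other Gjb2 probes. Grey boxes span the 5th to 95th percentile of all measured genes and dotted lines mark 1.5-fold. Gja1 (0.75) and Gjb6 (-0.62) lay outside the box in BLT2KO against WT, and Gjb6 (0.81) in BLT2KO_punched against BLT2KO; the dimmest Gjb2 probe (-0.71) lay outside it in BLT2KO against WT.

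Punched and unwounded skin were compared within each genotype to describe the wound response. In WT skin, Gjb6 was 1.25-fold higher after punching, with a log2 ratio of 0.33 that was 1.19 times the probe-pair SD. Gja1 was 1.16-fold higher, at 0.21, which is within the SD. Gjb2 was 1.24-fold lower (-0.31, 1.13 times the SD). Its other probes were 1.29-fold and 1.58-fold lower, which gave a mean of -0.45 ± 0.19 (SD, n = 3 probes). With median scaling, under which the median of all genes moved from 0.025 to 0.25, the Gjb2 ratio was 0.020 and that of Gjb6 0.67, or 1.59-fold. In the reported setting none of the measured connexins reached 1.5-fold. Of all 10382 genes, 7.47% did so upward and 6.57% downward, and 1.94% and 1.48% at 2-fold.

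In BLT2KO skin, the wound ratio of Gjb6 was larger than those of Gja1 and Gjb2. Gjb6 was 1.75-fold higher in BLT2KO_punched than in BLT2KO, a log2 ratio of 0.81 that was 2.98 times the probe-pair SD, and 4.48% of all 10587 genes had a ratio as high. Gja1 was at -0.14 and Gjb2 at 0.14, both within the SD of 0.27. The other Gjb2 probes were at -0.22 and 0.18. At 1.5-fold, 1 of the 3 measured connexins was higher and 0 lower, against 8.17% and 7.63% of all genes, and 0 reached 2-fold, as 3.10% of all genes did upward and 1.71% downward. The Gjb6 ratio was 0.76 to 1.04 over the other settings, past 2-fold with median scaling.

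The hair shaft and inner root sheath list, which belongs to a structure known to hold Cx26 and Cx30, had a median wound ratio of -1.97 in WT skin, with 12 of 12 genes at least 2-fold lower in WT_punched. In BLT2KO skin its median was -0.048 (0.13 with median scaling), with 0 of 12 past 2-fold. The wound-edge keratinocyte list had a median wound ratio of 0.51 in BLT2KO skin, with 5 of 12 genes at least 2-fold higher, and of -0.0022 in WT skin (0.27 with median scaling). S100a9 was the highest of this list in BLT2KO (2.59) and in WT skin (0.77). The lowest were Sprr1a in BLT2KO (-0.42) and Krt6a in WT skin (-0.83). The monocyte and macrophage medians were 0.84 and 0.36, and the neutrophil medians 2.97 and 1.5. Suprabasal keratinocyte genes had medians of -0.64 in BLT2KO and -0.30 in WT skin. All 7 neutrophil and all 7 monocyte and macrophage markers were detected on both punched arrays. The part of these lists in the Gjb2 and Gjb6 ratios was not tested.

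The wound ratio of BLT2KO minus that of WT was 0.48 for Gjb6, 0.45 for Gjb2 and -0.35 for Gja1 on the log2 scale. These were 1.84, 1.72 and 1.35 times the probe-pair SD of such differences, which was 0.26. Over the 3 Gjb2 probes the mean was 0.48 ± 0.35 (SD), with 3 of 3 above 0. None reached 1.5-fold, which 4.14% of all 9111 genes did upward and 3.27% downward, but with median scaling the Gja1 difference was -0.62, or 1.54-fold. Because these comparisons share arrays, the differences repeat the levels given above: the unwounded BLT2KO pool was the highest for Gja1 and the lowest for Gjb6.

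Whether the ratios moved with the processing was examined under 7 other settings. The direction of every Gja1 and Gjb6 ratio was kept in each setting. That of Gjb2 turned in 1 of 7 settings for WT_punched against WT and in 1 of 7 for BLT2KO_punched against WT_punched. Settings of the detection filter could not move the ratios of these genes, which were detected on every array. The mean of all probes could not move Gja1 or Gjb6, which had 1 probe each.

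**Figure D4:**
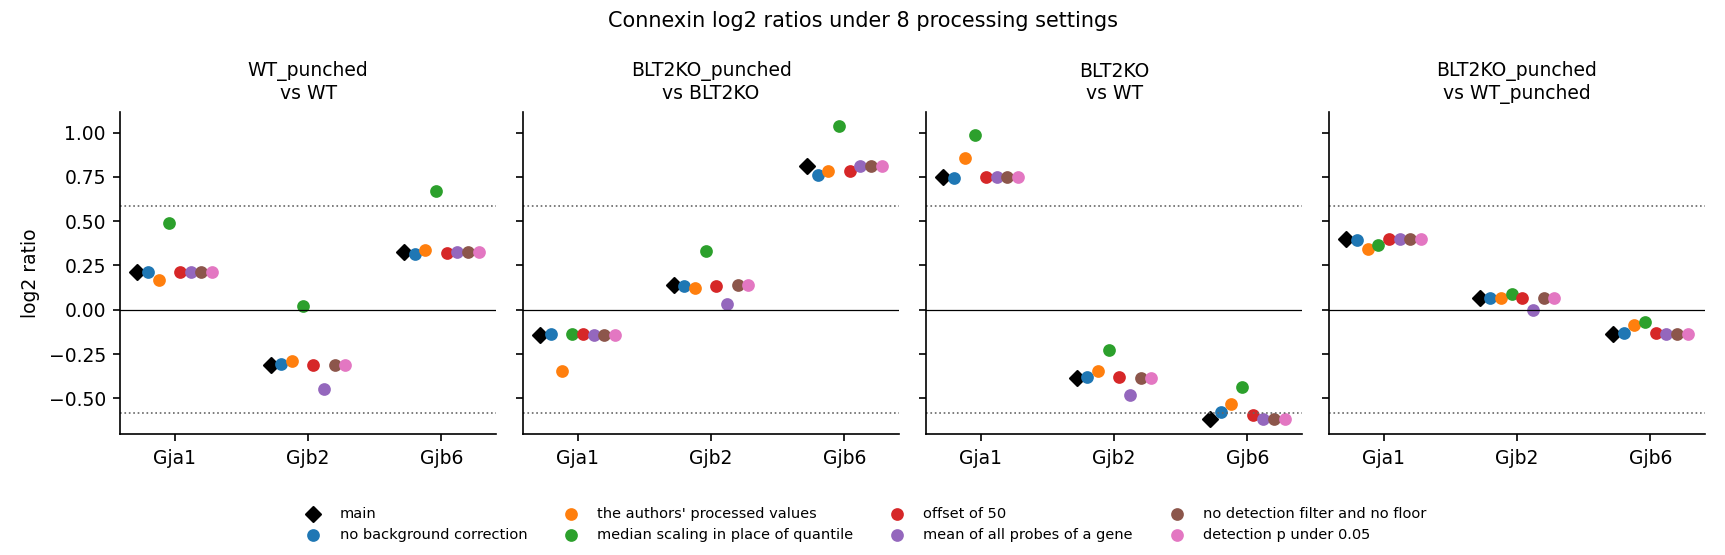
Log2 ratios (y axis) of Gja1, Gjb2 and Gjb6 (x axis) in the 4 comparisons (panels) under the reported setting (black diamonds) and 7 others (coloured points). Dotted lines mark 1.5-fold. Median scaling (green) stands apart most often, with Gja1 at 0.99 and Gjb6 at -0.44 in BLT2KO against WT.

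Of 12 other connexin genes analysed, 3 were detected on any array. The other connexins that were detected on all arrays, Gja5 and Gja4, are known from arterial and other vascular endothelium. Gja5 (Cx40) had log2 levels of 6.12 in WT, 5.78 in BLT2KO, 7.16 in WT_punched and 6.82 in BLT2KO_punched. Both punched pools were above both unwounded ones. It was 2.06-fold higher after punching in each genotype, against 1.94% of all genes at least 2-fold higher in WT and 3.10% in BLT2KO. A second probe gave 2.71-fold in WT and 2.59-fold in BLT2KO, another at least 1.65-fold and at least 1.42-fold, and 2 more were detected on no array.

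Gja4 (Cx37) had log2 levels of 7.40, 6.91, 7.88 and 7.84 in the same order of groups. Punching went with a 1.40-fold higher level in WT and a 1.92-fold higher level in BLT2KO. The Gja5 wound ratio ranged over the other settings from 0.60 to 1.20 in WT and from 0.59 to 1.18 in BLT2KO, so it was under 2-fold in some of them. Endothelial markers had median wound ratios of 0.36 in WT and 0.69 in BLT2KO, with 6 of 7 detected on every array and Kdr on none. Their part in the Gja4 and Gja5 ratios was not tested. Neither gene was 1.5-fold different between genotypes, with log2 ratios from -0.49 to -0.037 (0.061 with median scaling for Gja4 in punched skin).

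Gjc1 (Cx45) was detected in WT alone, at a log2 level of 5.29. Against WT, its level was lower by at least 1.06-fold in WT_punched and by at least 1.07-fold in BLT2KO. Its other probes were detected on no array. Averaging its 3 probes gave log2 ratios of 0.48 in these comparisons. There, however, the floor of 5.20 used for WT_punched and for BLT2KO was higher than the averaged WT level. No direction can be read from these averaged ratios. Gja3, Gja6, Gja10, Gjb1, Gjc3, Gjd2, Gjd3, Gjd4 and Gje1 were detected on no array.

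**Figure D5:**
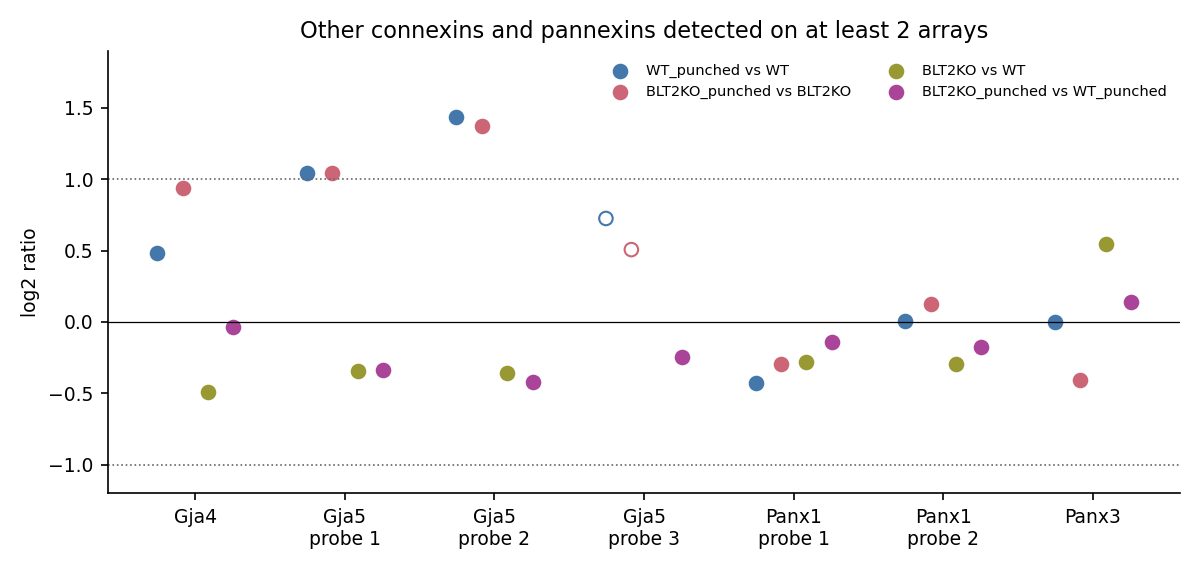
Log2 ratios (y axis) of the probes of other connexins and pannexins detected on at least 2 arrays (x axis), coloured by comparison. Open symbols are bounds where 1 side was not detected, and dotted lines mark 2-fold. Only Gja5 had ratios past 2-fold, 1.04 and 1.05 for its brightest probe after punching.

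Pannexins form membrane channels related to those of invertebrate gap junctions and release ATP. Panx1 had log2 levels of 8.92 in WT, 8.62 in BLT2KO, 8.92 in WT_punched and 8.75 in BLT2KO_punched, and was 1.23-fold lower in BLT2KO than in WT. A second Panx1 probe had 8.13, 7.85, 7.70 and 7.55 in the same order of groups. Its wound ratios were -0.43 in WT and -0.30 in BLT2KO skin, against 0.0030 and 0.13 for the first probe. Panx3, known from bone, cartilage and skin, had 9.70, 10.25, 9.70 and 9.84. It was 1.46-fold higher in BLT2KO than in WT without a wound, with BLT2KO the highest array, as for Gja1. Panx2 was not detected.

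Of 17 genes for connexin partners and regulators, 13 were on the array, 12 were detected on some array and 0 reached 2-fold in any of the 4 comparisons. Without a detection filter and floor, Dbn1 did so in BLT2KO_punched against BLT2KO, at a log2 ratio of 1.27. Their median log2 ratios were -0.0055 in WT_punched against WT (0.32 with median scaling), -0.20 in BLT2KO_punched against BLT2KO (0.038), 0.095 in BLT2KO against WT and 0.18 in BLT2KO_punched against WT_punched. Nedd4, a ubiquitin ligase that acts on Cx43, was the lowest in WT_punched against WT (1.53-fold lower, a log2 ratio of -0.62, and -0.31 with the mean of its probes). Ctnnb1, which encodes the junction protein beta-catenin, was the lowest in BLT2KO_punched against BLT2KO (1.52-fold lower, a log2 ratio of -0.60, and -0.33 with the mean of its probes). Dbn1, whose actin-binding product drebrin binds Cx43, was the highest in both, at least 1.37-fold and at least 1.79-fold. These are log2 ratios of 0.45 and 0.84, and with the mean of its probes they were 0.017 and 0.20, in BLT2KO below the 0.21 of the kinase gene Src. It was also the highest in BLT2KO_punched against WT_punched (1.28-fold, a log2 ratio of 0.36, and 0.13 in the authors' processed values). The cadherin gene Cdh2 was the lowest there, at least 1.32-fold lower. With the mean of all its probes the log2 ratio was 0.19, but the level set for the undetected BLT2KO_punched side lay above the mean in WT_punched. That value therefore gives no direction.

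In unwounded skin, Csnk1d, a casein kinase that phosphorylates Cx43, was 1.41-fold lower in BLT2KO than in WT, the lowest of the list, at a log2 ratio of -0.49 (-0.21 with the mean of its probes). Tjp1, whose product ZO-1 binds the tail of Cx43, was the highest, at least 1.26-fold (log2 ratio 0.33, and 0.014 in the authors' processed values), and was detected on the BLT2KO array alone.

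Genes with a like pattern were found by the root mean square difference of log2 levels over the 4 arrays, after each gene's mean was taken away, among 8931 other genes detected on all arrays. With 4 arrays, many genes come close to any pattern. For Gja1 the nearest were Tpd52l1 (0.041), Ddx10 (0.042), Ezh2 (0.044) and E2f2 (0.046), against a median of 0.36 over the genes ranked. For Gjb6 they were Ifitm1 (0.013), Irf8 (0.022), Gpr137 (0.023) and C1qc (0.028), against 0.38. For Gjb2 they were Klhdc1 (0.023), Cd300lg (0.024), Ccdc61 (0.025) and Sox18 (0.030), against 0.22. The connexins were not near each other by this measure, at 0.42 between Gja1 and Gjb2, 0.58 between Gja1 and Gjb6 and 0.35 between Gjb2 and Gjb6.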

How the data were processed

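Per the labels' protocols, the pooled RNA was amplified, labelled with biotin and put on Illumina MouseWG-6 BeadChips, which were read on a BeadStation and exported through BeadStudio. The authors deposited each probe's linear intensity without normalization. Each deposited intensity has a detection p-value beside it, per the file headers. A second deposited table of processed intensity values equalled the first times 1 constant per array, from 0.950 to 1.24.

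With limma 3.58.1 (R 4.3.3), intensities went through normexp background correction from the detection p-values, an offset of 16, quantile normalization and log2 (neqc). Quantile normalization gives all arrays the same distribution, so a shift of most genes in 1 direction would not show. Later steps used Python 3.11.15, numpy 2.4.6, pandas 2.3.3 and matplotlib 3.10.9. The normalization was tested on simulated intensities. For the probe-pair SD only its formula was tested, on simulated pairs of values. Of 45281 probes, 34885 had 1 annotated gene, 18 several and 10378 none listed; gene IDs of 34807 matched RefSeq (GRCm38.p6), with 0 symbols updated. The probe with the highest mean stood for a gene. A gene entered a ratio if detected (p under 0.01) on at least 1 of the arrays. An undetected side was set to the lowest detected level of its array (5.10 to 5.23) or its own value if higher, and the ratio is printed as "at least". The probe-pair SD is that of the difference between the ratios of 2 probes of a gene, divided by the square root of 2.

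Each comparison was between 2 arrays, without a test. The number of arrays limits the precision. The members, gene lists, thresholds and alternatives were chosen with earlier results of these data known. Named were the connexins and pannexins analysed, the highest and lowest partner in each comparison and the 4 genes most like each member, clone names left out; the marker genes and Ltb4r1 were named beside results. Alternatives were no background correction, the processed values (log2 with 16 added), median scaling, an offset of 50, the mean of all probes, no detection filter or floor, and detection at 0.05.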

Additional observations from a re-analysis of the deposited data

Results flagged for a closer look

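The wound ratio of Gja1 was above 0 in WT skin (0.21) and below 0 in BLT2KO skin (-0.14), a difference of -0.35 on the log2 scale. That of Gjb2 was below 0 in WT skin (-0.31) and above 0 in BLT2KO skin (0.14), a difference of 0.45. Both were noted because the only array pair of one genotype moved the opposite way to that of the other. The differences were not tested, and the 2 ratios in BLT2KO skin were within the probe-pair SD of 0.27. The Gja1 ratio in WT skin was also within its SD, which was 0.28. The second Gjb2 probe was lower after punching in both genotypes (-0.37 in WT and -0.22 in BLT2KO skin). The dimmest went as the brightest did (-0.66 and 0.18). With median scaling the Gjb2 ratio in WT skin was 0.020.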

How the results depend on the processing

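The medians of the measured connexins were recomputed under 7 settings in 5 contrasts. Of 35 such values, 32 moved by less than the probe-pair SD. With median scaling, the median for WT_punched against WT was 0.49, where the median of all genes was 0.25. With no detection filter and no floor, which adds the undetected Gjb5, the median was -0.14 for BLT2KO against WT and 0.049 for the difference of the wound ratios. Of 105 values of single genes, 100 moved by less than the SD and 5, all with median scaling, by more. Among the 5 were Gjb6 in WT_punched against WT (0.67), Gja1 in the same comparison (0.49) and the difference of its wound ratios (-0.62). Many of the 100 could not move. The 2 detection settings leave genes detected on every array unchanged, and the mean of all probes leaves Gja1 and Gjb6 unchanged, with 1 probe each. Median scaling also moved the median of all genes to 0.16 for BLT2KO_punched against BLT2KO and 0.12 for BLT2KO against WT. With detection at 0.05, Gjb5 was detected in WT_punched alone, with a bound of 0.087 on its log2 ratio to WT. Counts of genes past 2-fold in BLT2KO against WT were 111 higher and 120 lower, and 77 and 59 without background correction. In WT_punched against WT they were 201 and 154, and 85 and 52 without it. In BLT2KO_punched against BLT2KO they were 328 and 181, and 191 and 58 without it. In BLT2KO_punched against WT_punched they were 114 and 57, and 80 and 31 without it. No paired analysis was possible because the groups compared share a single replicate number, each group being 1 array of pooled RNA. A fit of genotype and wound as additive effects over the 4 arrays, which takes the difference between wound ratios as error, was not run.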
